A study of Mus musculus with 6 samples.

Results

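The genes described here are 8 genes of the MHC class I antigen presentation pathway, out of 22180 genes measured in the series. They are the heavy chain genes H2-T24, H2-T23 and H2-M3, the light chain gene B2m, the peptide transporter genes Tap1 and Tap2, the tapasin gene Tapbp, and Nlrc5, which encodes the transactivator of class I genes. Each gene stands by 1 probe set, the one with the highest mean over the 6 arrays among those annotated to exactly 1 symbol, and all 8 genes had such a probe set. The list was chosen by pathway role and with the knockout and wild-type values of these same arrays known, so the differences are a description and support no claim about the pathway.

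RNA came from LSK cells, the lineage-negative, Sca1-positive, cKit-positive fraction of bone marrow that holds stem cells and multipotent progenitors. The cells came from 3 mice per group that had been transplanted with Tifab+/+ marrow (wild type) or Tifab-/- marrow (knockout), and each mouse gave 1 Affymetrix MoGene 2.0 ST array. The labels of both groups also name the same lethally irradiated Boy/J recipients (7 and 4.75 Gy, 3 hours apart), state 3 months, which may be the age of the mice or the time since the transplant, and leave unsaid whether host cells were gated out. The comparison sets LSK cells of mice given knockout marrow beside those of mice given wild-type marrow. All values are log2 probe set values, and a difference is the knockout mean minus the wild-type mean.

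MHC class I proteins display peptides from inside the cell at the cell surface. Cytosolic peptides made by the proteasome are pumped into the endoplasmic reticulum by the TAP transporter, loaded onto a heavy chain paired with beta-2 microglobulin with the help of tapasin, and carried to the surface, where T cells and natural killer cells read them. Most genes of the pathway respond to interferon, and NLRC5 drives them through a promoter module of S, X and Y boxes that it shares with the regulators of MHC class II genes.

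Of the 8 genes, H2-T24 and H2-T23 stood higher in all 3 knockout arrays than in all 3 wild-type arrays, as did 7.75% of all genes. These genes lie close together on chromosome 17 and encode nonclassical heavy chains, and their knockout means were 1.86-fold and 1.35-fold the wild-type means. The other 6 genes, which include the light chain, both transporter subunits, tapasin and the transactivator, overlapped between the groups and differed by between -0.11 and 0.24. No gene of the 22180 passed an adjusted p of 0.05 in limma, and the adjusted p values of the 8 genes ran from 0.297 for H2-T24 to 0.905 for Nlrc5.

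**Figure D1:**
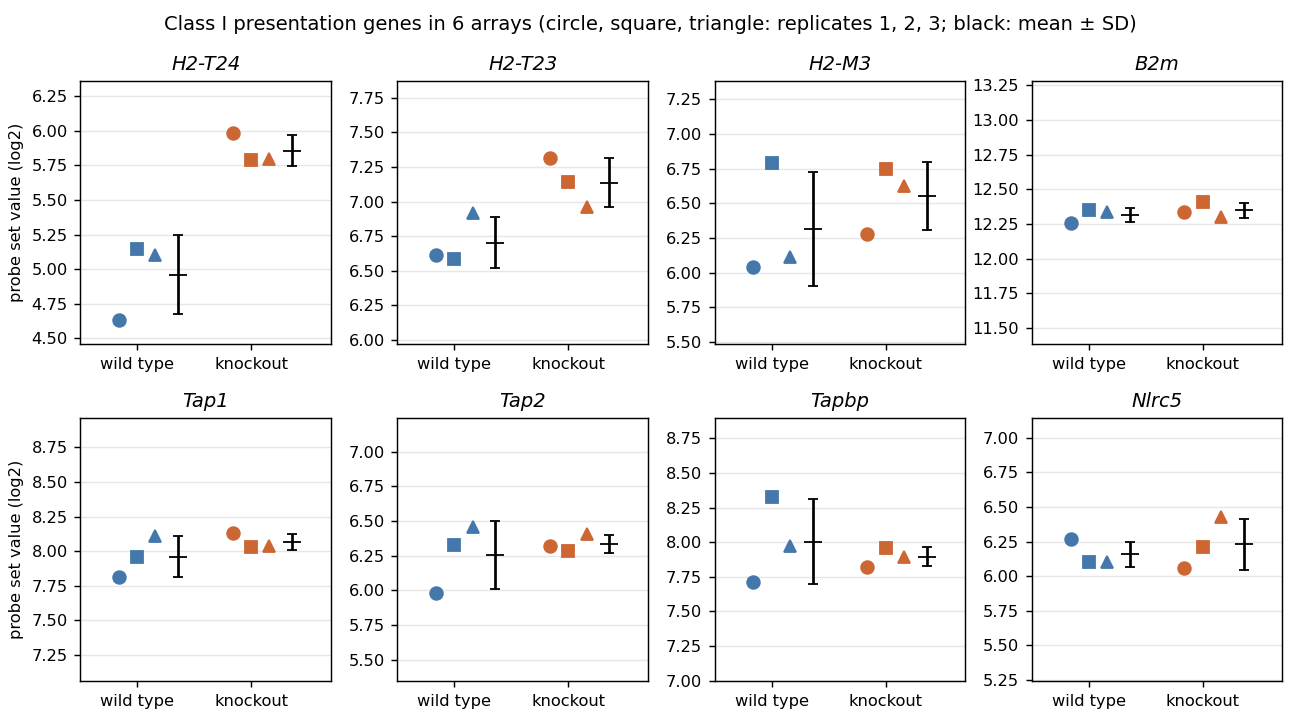
The log2 probe set value of each of the 8 genes (y axis, each panel spanning the same log2 distance) in the 3 wild-type and 3 knockout arrays (x axis), with the symbol giving the replicate number and black bars the group mean ± SD. Knockout arrays of H2-T24 lie between 5.79 and 5.98, above the wild-type arrays at 4.63 to 5.15, while in 6 of the genes the groups overlap.

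The heavy chain forms the peptide groove and gives each class I protein its identity. H2-T24, a nonclassical heavy chain gene of the T region, read 4.63, 5.15 and 5.10 in the wild-type arrays and 5.98, 5.79 and 5.80 in the knockout arrays. Every knockout array lay above every wild-type array, with a gap of 0.64 between the highest wild-type and the lowest knockout value, and wild-type replicate 1 was the lowest array of all. The means were 4.96 ± 0.28 (SD, n = 3) and 5.86 ± 0.11 (SD, n = 3), a difference of 0.90 ± 0.18 (SE), with a 95% interval of 0.48 to 1.31. By unadjusted p in the limma fit, H2-T24 ranked 54 of 22180 genes. Its difference without wild-type replicate 1 was 0.73.

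H2-T23 encodes Qa-1, a nonclassical heavy chain that presents leader peptides of other class I proteins to the CD94/NKG2A receptor of natural killer cells. It read 6.62, 6.58 and 6.91 in the wild-type arrays and 7.31, 7.14 and 6.96 in the knockout arrays. The groups were separate by only 0.04, because wild-type replicate 3 stood close to knockout replicate 3. The means were 6.70 ± 0.18 (SD, n = 3) and 7.14 ± 0.18 (SD, n = 3), a difference of 0.43 ± 0.16 (SE) with a 95% interval of 0.07 to 0.80, and an adjusted p of 0.427 in limma. Its unadjusted p in limma was 0.0247. It rose above 0.05 when wild-type replicate 1 (0.0639) or 2 (0.0747) or knockout replicate 1 (0.101) or 2 (0.0559) was left out.

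The promoter of H2-T23 is printed because it is the only one of the 2 separated genes with a window in the RefSeq promoter table (GRCm38.p6), and because it holds an interferon-type motif. The 250 bases before its start lie at chr17:36032702-36032951 on the minus strand and are written 5′ to 3′ in the direction of the gene, with motif matches in capitals.
H2-T23: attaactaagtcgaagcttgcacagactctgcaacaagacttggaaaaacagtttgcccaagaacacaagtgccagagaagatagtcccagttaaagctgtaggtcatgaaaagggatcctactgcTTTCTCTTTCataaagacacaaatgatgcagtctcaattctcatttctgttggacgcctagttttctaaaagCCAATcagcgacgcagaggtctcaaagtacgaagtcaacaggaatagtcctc
The first run of capitals is an interferon-stimulated response element (ISRE, searched as GAAA, any 2 bases, GAAA) on the opposite strand at bases -124 to -115, and the second is a Y box (ATTGG) on the opposite strand at -52 to -48, counted from the gene start. Of the 32851 promoter windows of 300 bases, 3.44% hold the ISRE letters and 37.4% the Y box letters on either strand. A match of letters is a description of the sequence and not a measured site.

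H2-M3 encodes a heavy chain specialised for N-formylated peptides such as those of mitochondria and bacteria. It read 6.04, 6.79 and 6.11 in the wild-type arrays and 6.28, 6.75 and 6.62 in the knockout arrays. The highest of the 6 values was a wild-type array, replicate 2, and the groups overlapped. The means were 6.31 ± 0.41 (SD, n = 3) and 6.55 ± 0.24 (SD, n = 3), a difference of 0.24 ± 0.23 (SE) with a 95% interval of -0.27 to 0.74. Leaving out wild-type replicate 1 gave 0.10 and leaving out replicate 2 of that group gave 0.47 with an unadjusted p of 0.0382 in limma, each more than 1.5 times from the full value.

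B2m encodes beta-2 microglobulin, the light chain that every classical class I heavy chain needs to fold and reach the surface. It read 12.26, 12.35 and 12.34 in the wild-type arrays and 12.34, 12.41 and 12.30 in the knockout arrays. The values of the groups were interleaved, and of the 8 genes B2m varied least, with an SD of 0.0503 over the 6 arrays. Its means were 12.32 ± 0.05 (SD, n = 3) and 12.35 ± 0.05 (SD, n = 3), a difference of 0.03 ± 0.06 (SE). The 95% interval, -0.10 to 0.16, bounds a change of B2m more tightly than that of any other gene of the 8. The sign turned under quantile normalization (-0.02) and cyclic loess (-0.09). Its probe set stood at percentile 99.98 of the mean values over all genes, near the top of the range of the array, where differences can be compressed.

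The B2m promoter is printed beside that of H2-T23 because it carries the same pair of motifs, ISRE and Y box. A part of these motifs in the values of either gene was not tested. The 250 bases before its start lie at chr2:122147437-122147686 on the plus strand of GRCm38.p6.
B2m: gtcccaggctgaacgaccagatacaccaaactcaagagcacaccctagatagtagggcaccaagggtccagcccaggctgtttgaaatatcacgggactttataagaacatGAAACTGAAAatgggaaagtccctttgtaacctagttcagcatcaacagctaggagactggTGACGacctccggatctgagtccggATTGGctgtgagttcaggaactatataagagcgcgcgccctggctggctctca
The capitals mark, in order, the ISRE at -139 to -130, the letters TGACG at -78 to -74 and the Y box at -53 to -49. A further TGACG match on the opposite strand lies after the gene start, outside the printed bases. TGACG, the shared core of the X2 box, was added to the search after the sequences had been seen, and 20.8% of promoter windows hold it. The Y box starts at -52 in H2-T23, on the opposite strand, and at -53 in B2m, on the strand of the gene. This nearness was seen after the search and has no background share. Y boxes in the windows of H2-M3, Tap1 and Tapbp start between -248 and -21.

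Tap1 and Tap2 encode the subunits of the transporter that moves peptides into the endoplasmic reticulum. Tap1 read 7.82, 7.96 and 8.11 in the wild-type arrays and 8.13, 8.03 and 8.04 in the knockout arrays. All knockout values lay in the upper part of the wild-type range or just above it, and wild-type replicate 3 was higher than knockout replicates 2 and 3. The difference was 0.11 ± 0.13 (SE), with a 95% interval of -0.18 to 0.40, and it was 0.03 without wild-type replicate 1.

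Tap2 read 5.98, 6.33 and 6.46 in the wild-type arrays and 6.32, 6.28 and 6.41 in the knockout arrays. Wild-type replicate 1 was the lowest and wild-type replicate 3 the highest, with the knockout arrays between them. The difference of 0.08 ± 0.17 (SE, 95% interval -0.30 to 0.46) turned to -0.06 without wild-type replicate 1.

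The Tap1 promoter is shown as the only one of the 5 windows found for the 8 genes that holds the full X2 box letters (TGACGNNA), part of the module through which NLRC5 acts. The 250 bases before the start lie at chr17:34187306-34187555 on the plus strand of GRCm38.p6.
Tap1: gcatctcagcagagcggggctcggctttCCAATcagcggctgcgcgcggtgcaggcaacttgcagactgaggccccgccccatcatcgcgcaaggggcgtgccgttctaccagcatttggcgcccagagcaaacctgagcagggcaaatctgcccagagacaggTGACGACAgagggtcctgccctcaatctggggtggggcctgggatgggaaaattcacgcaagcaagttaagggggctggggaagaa
The capitals mark a Y box on the opposite strand at -222 to -218 and the X2 box at -86 to -79, whose first bases are also a TGACG match. Both stretches lie in the window of the neighbouring gene Psmb9 as well. Counted from the Psmb9 start, the Y box is at -8 to -4 and the X2 box at -147 to -140. The X2 box letters occur in 6.61% of all promoter windows. The windows of H2-M3 and Tapbp hold 3 and 2 Y boxes, and H2-M3 also holds a GAS element (TTCNNNGAA, in 8.3% of windows) and 1 TGACG. None of the 5 windows held the kappa-B letters as searched (GGG, any 4 bases, CCC), which 11.9% of all windows hold. Other spellings of a kappa-B site were not searched. The B2m window holds gggaaagtccc, which these letters cannot match, so the search does not show that kappa-B-type sequence is absent.

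Tapbp encodes tapasin, which bridges the transporter and the empty class I protein and edits the peptides it binds. Tapbp read 7.71, 8.33 and 7.97 in the wild-type arrays and 7.82, 7.96 and 7.90 in the knockout arrays. All knockout values fell inside the wild-type range, and the high wild-type replicate 2 set the sign: the difference of -0.11 ± 0.17 (SE, 95% interval -0.48 to 0.26) was 0.05 without that array and -0.26 without wild-type replicate 1. A dimmer probe set of the same symbol gave another picture. It read 6.42, 6.41 and 6.04 in the wild-type arrays and 5.42, 5.89 and 6.03 in the knockout arrays, with every knockout value below every wild-type value. Its difference was -0.51 ± 0.21 (SE), with an adjusted p of 0.492 when limma was fitted to every probe set, and the mean of both Tapbp probe sets differed by -0.31. The probe sets annotated to Tapbp alone therefore disagreed in size and in overlap. A further probe set annotated to both Tapbp and Zbtb22, left out by the rule, differed by 0.16 with overlap. The transcripts each detects were not analysed here.

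Nlrc5 encodes the NOD-like receptor protein that enters the nucleus and activates class I heavy chain, B2m, Tap1 and immunoproteasome promoters. It read 6.27, 6.10 and 6.10 in the wild-type arrays and 6.06, 6.21 and 6.43 in the knockout arrays. Knockout replicates 1 and 3 held the lowest and the highest value of all 6, so the knockout group spanned the wild-type group. The difference was 0.07 ± 0.16 (SE), with a 95% interval of -0.28 to 0.43, and it was -0.02 without knockout replicate 3.

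**Figure D2:**
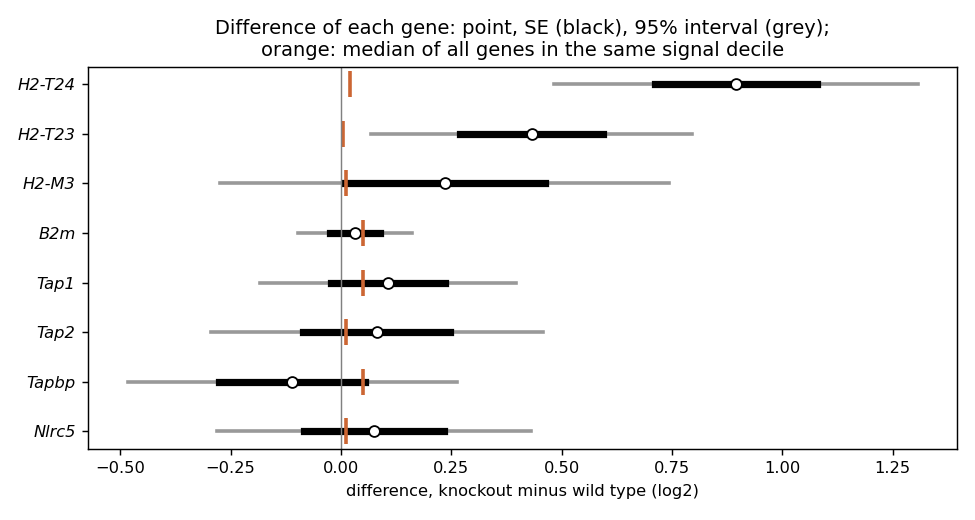
Difference of each of the 8 genes (x axis, knockout minus wild type, log2), with the point as the difference, the black bar as ± 1 SE, the grey bar as the 95% interval, and an orange tick at the median difference of all genes in the same decile of mean signal. The intervals of H2-T24 (0.48 to 1.31) and H2-T23 (0.07 to 0.80) lie above 0, and the intervals of the other 6 genes include 0.

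Counted together, 7 of the 8 genes were higher and 1, Tapbp, was lower in the knockout arrays, beside 50% of all genes higher. The 2 genes that did not overlap, both higher, stand beside 7.75% of all genes that were higher without overlap, 8.37% that were lower without overlap and 16.1% in either direction. The same 2 genes had an unadjusted p under 0.05 in limma, which 4.74% of all genes had in the higher and 5.51% in the lower direction. Without wild-type replicate 1, knockout replicate 1 or knockout replicate 2, H2-T24 alone had such a p, and leaving out wild-type replicate 2 put H2-M3 in the place of H2-T23. None had an adjusted p under 0.05, as for 0% of all genes. The calls over all genes, 1052 higher and 1222 lower, turned to 1190 higher and 848 lower under quantile normalization. The median difference of the 8 genes was 0.09, and that of all genes was 0.00. Because the choice of the 8 genes used this comparison, nothing is read from these shares.

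The wild-type arrays were not alike in these genes. Over the 8 genes, wild-type replicate 1 lay below the gene's own 6-array mean in all but 1 gene, by 0.28 on average, while the mean deviation of the other 5 arrays lay between -0.06 and 0.13. Across all genes its mean correlation with the remaining arrays was 0.976, against 0.979 to 0.982 for each of those. Without it, the 8 genes differed by 0.73 (H2-T24), 0.39 (H2-T23), 0.10 (H2-M3), 0.00 (B2m), 0.03 (Tap1), -0.06 (Tap2), -0.26 (Tapbp) and 0.13 (Nlrc5). H2-T24 and H2-T23 remained higher without overlap. Tapbp then lay lower without overlap, but narrowly, with knockout replicate 2 at 7.96 and wild-type replicate 3 at 7.97. Groups of fewer arrays separate more easily, and the share of all genes without overlap in this setting is not given. The Tifab probe set did not separate the groups (-0.10 ± 0.18, SE, adjusted p = 0.885 in limma), so every direction rests on the labels.

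**Figure D3:**
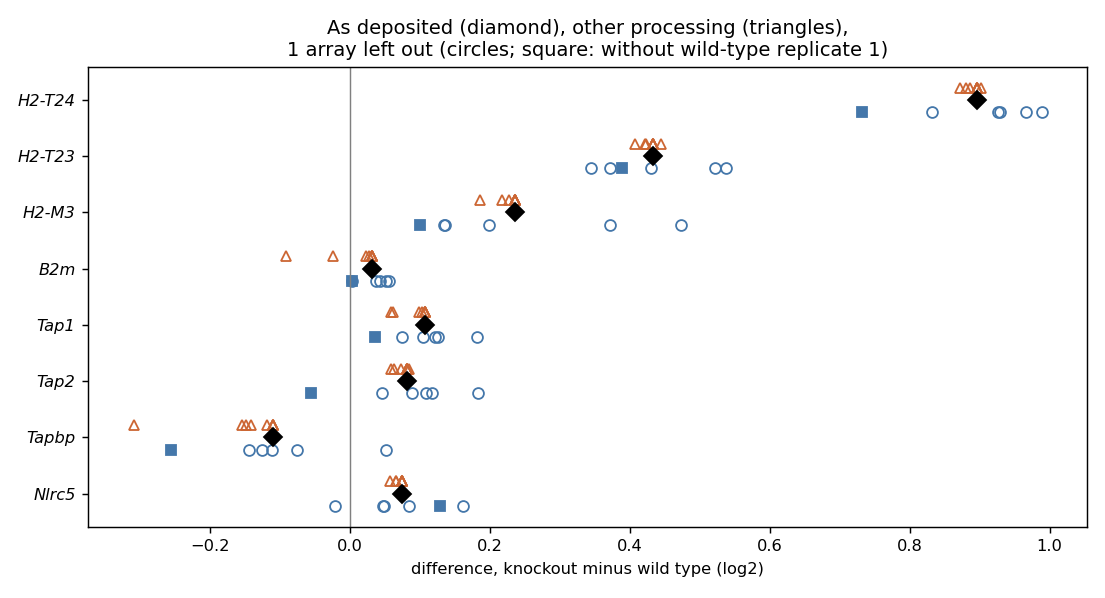
Difference of each of the 8 genes (x axis, knockout minus wild type, log2) as deposited (diamond), under other processing (triangles) and with 1 array left out (circles, with a square for the fit without wild-type replicate 1). H2-T24 stays between 0.73 and 0.99 and H2-T23 between 0.34 and 0.54, while the points of B2m, Tap2, Tapbp and Nlrc5 fall on both sides of 0.

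Of the 8 genes, 6 lie in the MHC region of chromosome 17, and the pair with separated groups follow each other there in order of start. In GRCm38.p6, H2-T24 spans chr17:36003471-36020800 and H2-T23 spans chr17:36029977-36032701, with 9176 bases between them and 0 measured genes that start in between. The measured gene A930015D03Rik, named after its values were seen, spans both (chr17:35994504-36038174) and differed by -0.38 ± 0.22 (SE). Tapbp (chr17:33919478-33929290) and H2-M3 (chr17:37270234-37274485) mark the outer ends of the stretch, and Tap1 (chr17:34187556-34197225) and Tap2 (chr17:34204479-34216321) lie close to Tapbp. B2m lies apart at chr2:122147687-122153082 and Nlrc5 at chr8:94434335-94527272. Among the 177 measured genes from Tapbp to H2-M3, H2-T24 had the highest difference, and the lowest was -0.79 at H2-T10, another T region heavy chain. Leaving out the 6 genes of the pathway, 88 of the other 171 were higher and 83 lower, and their median was 0.01. With an unadjusted p under 0.05 in limma, 7 were higher and 11 lower, beside 4.74% and 5.51% of all genes. Without overlap, 19 were higher and 13 lower, beside 7.75% and 8.37% of all genes.

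**Figure D4:**
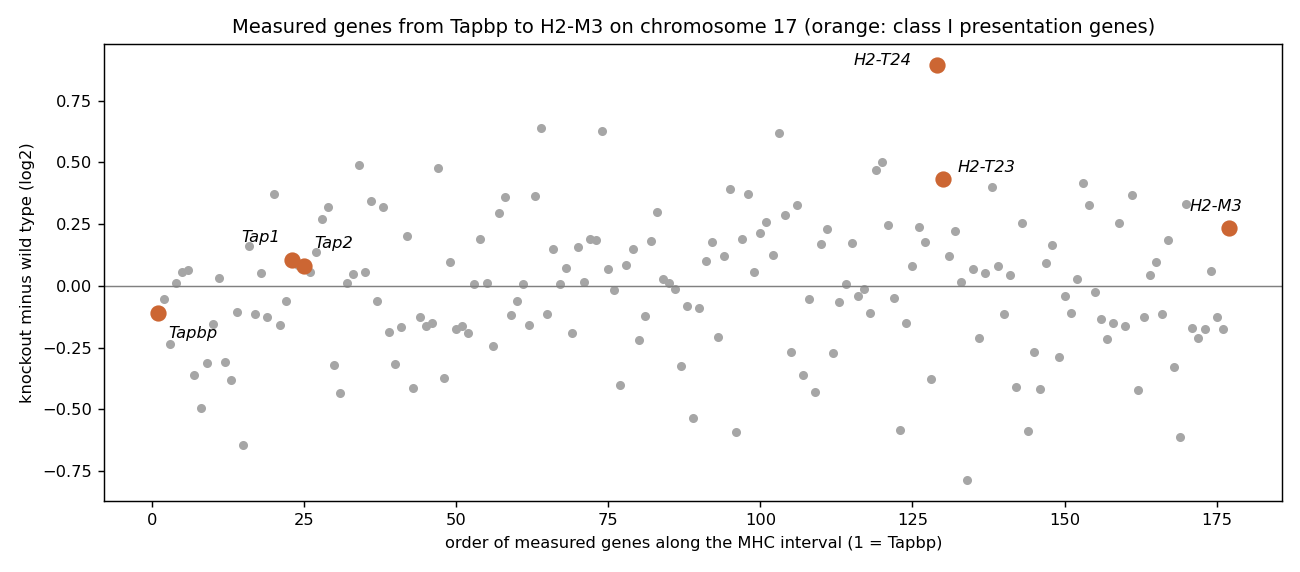
Difference (y axis, knockout minus wild type, log2) of the 177 measured genes from Tapbp to H2-M3 in their order along chromosome 17 (x axis, position in that order), with the class I presentation genes in orange. H2-T24 at 0.90 is the highest point and H2-T23, the next in order, stands at 0.43, in a field of genes scattered on both sides of 0.

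The other heavy chains were divided between both directions. Counts of genes with an unadjusted p under 0.05 in limma, here and below, stand beside 4.74% higher and 5.51% lower of all genes. Of 38 listed genes for other class I heavy chains and class I-like proteins, 27 had a probe set of their own, and 12 of these were higher and 15 lower, with a median of -0.04. None was higher and 2 were lower with an unadjusted p under 0.05: H2-T10 by -0.79 ± 0.32 (SE) and H2-M10.3, from a low signal, by -0.59 ± 0.22 (SE). Leaving out knockout replicate 2 brought these 2 genes to 0 and the median to -0.14, and leaving out wild-type replicate 1 brought the median to 0.01. Leaving out wild-type replicate 2 or the dim genes left 1 gene with such a p. H2-K2, a K region gene outside the list and named after its values were seen, differed by -0.49 ± 0.20 (SE) with an unadjusted p of 0.0325 in limma. H2-K1, the classical heavy chain with a probe set of its own, measured 10.21 ± 0.13 (SD, n = 3) in the wild-type arrays and 10.06 ± 0.03 (SD, n = 3) in the knockout arrays. Its groups overlapped through wild-type replicate 3 at 10.06, and the difference was -0.15 ± 0.10 (SE). H2-Q4 differed by -0.59 ± 0.30 (SE) and H2-Q1 by 0.39 ± 0.19 (SE), the latter without overlap. Heavy chain genes are near-identical in stretches, so transcripts of one can bind probes of another, and 6 probe sets annotated to several of them, which were left out, differed by between -0.27 and 0.33 with overlap in each.

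Upstream of the transporter, the proteasome and its activator cut proteins into class I peptides. Of 15 listed genes for peptide generation, 14 were measured, 11 higher and 3 lower, with a median of 0.14, and 2 were higher with an unadjusted p under 0.05. Leaving out wild-type replicate 1 gave a median of 0.06, and leaving out replicate 3 of that group gave 0.22 and 4 genes with such a p. Psme1, a subunit of the interferon-inducible PA28 activator, read 8.67, 8.66 and 8.93 in the wild-type arrays and 9.19, 9.33 and 9.11 in the knockout arrays. Its groups were separate, and the difference was 0.46 ± 0.12 (SE). Its partner subunit Psme2 differed by 0.26 ± 0.23 (SE), with knockout replicate 2 below all wild-type arrays. Psmb10, a catalytic subunit of the immunoproteasome, read 8.71, 8.74 and 8.87 in the wild-type arrays and 9.27, 8.99 and 9.25 in the knockout arrays, a difference of 0.40 ± 0.12 (SE) without overlap. The other immunoproteasome subunits, Psmb8 (0.09 ± 0.13, SE) and Psmb9 (-0.06 ± 0.19, SE), whose genes lie beside Tap1 and Tap2, overlapped between the groups.

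Inside the endoplasmic reticulum, chaperones fold the heavy chain and hold it ready for peptide. Of 18 listed genes for peptide loading and quality control, 16 were measured, 12 higher and 4 lower, with a median of 0.13 that fell to 0.07 under quantile normalization and 0.06 under cyclic loess. It was 0.07 without either wild-type replicate 1 or knockout replicate 2. The 2 genes with an unadjusted p under 0.05 were both higher, and without wild-type replicate 3 there were 3 higher and 1 lower. Pdia3 encodes ERp57, the thiol oxidoreductase bound to tapasin in the loading complex. It read 8.55, 8.63 and 8.96 in the wild-type arrays and 9.27, 9.19 and 9.04 in the knockout arrays, a difference of 0.46 ± 0.14 (SE) with all knockout arrays above. Sec61b, a subunit of the translocon that threads new proteins into the endoplasmic reticulum, differed by 0.78 ± 0.15 (SE), also without overlap. The chaperone genes Calr (0.13 ± 0.10, SE) and Canx (0.15 ± 0.10, SE), the peptide trimmer Erap1 (0.10 ± 0.14, SE) and the tapasin relative Tapbpl (0.12 ± 0.22, SE) differed by less, and Calr alone of these had separate groups.

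Among 28 measured of 31 listed regulators of class I transcription, 16 were higher and 12 lower, with a median of 0.09 that became -0.01 on leaving out wild-type replicate 1 and 0.04 on leaving out knockout replicate 2. Socs1, which encodes a feedback inhibitor of interferon receptor kinases, was the 1 gene with an unadjusted p under 0.05. That count became 4 on leaving out wild-type replicate 3 and 2 on leaving out wild-type replicate 2, knockout replicate 1, knockout replicate 2 or the intensity trend of the fit. It measured 5.94 ± 0.06 (SD, n = 3) in the wild-type arrays, the lowest at 5.88, and read 5.19, 5.34 and 5.30 in the knockout arrays. The groups were separate by 0.54, and the difference was -0.66 ± 0.15 (SE), with an adjusted p of 0.297 in limma. Ciita, the class II counterpart of Nlrc5, differed by 0.37 ± 0.17 (SE) with the groups separate by 0.01, and the interferon-induced activator Irf1 by 0.29 ± 0.17 (SE) with overlap. Subunits of the factors that bind the X and Y boxes differed in both directions, Rfx5 by -0.11, Rfxank by -0.22 and Nfya by -0.15, Rfxap by 0.29 and Nfyb by 0.22.

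On the receiving side, 11 of 17 listed receptors of class I proteins were measured, 4 higher and 7 lower, with a median of -0.13 that became 0.04 on leaving out wild-type replicate 2 or knockout replicate 3, 0.09 on leaving out wild-type replicate 3 and -0.07 on leaving out knockout replicate 1. Klrd1, which encodes CD94, the partner of NKG2 chains in the receptor for Qa-1, read 3.35, 3.35 and 3.50 in the wild-type arrays and 4.25, 4.11 and 3.71 in the knockout arrays. All knockout arrays were higher, and the difference of 0.63 ± 0.18 (SE) was the only one in the list with an unadjusted p under 0.05. Its signal was low, below the array medians in every wild-type array, and 0 receptors had such a p with dim genes left out, against 2 without wild-type replicate 2 or 3. Klrc1, which encodes the inhibitory NKG2A chain, differed by -0.14 ± 0.32 (SE). Klrd1 was also the only one of 13 measured T and natural killer cell markers with an unadjusted p under 0.05. The summed level of those markers lay between 10.12 and 10.49 in the wild-type arrays and between 10.15 and 10.37 in the knockout arrays.

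Both interferon lists had more genes higher than lower, and a part of interferon in the class I values was not tested. Of 22 measured of 28 listed interferon-gamma response genes, 17 were higher and 5 lower, with a median of 0.25 that fell to 0.11 without wild-type replicate 1. With an unadjusted p under 0.05, 3 were higher (Cxcl9, Irgm2 and Casp1) and 2 lower (Socs1 and Gbp6). The 5 became 3 under quantile normalization, under cyclic loess or when limma was fitted to every probe set. Of 29 measured of 32 listed type I interferon response genes, 19 were higher and 10 lower, with a median of 0.26, and 11 were higher and 1 lower with an unadjusted p under 0.05. Of all genes, 4.74% were higher and 5.51% lower with such a p. The 12 type I interferon response genes became 6 without wild-type replicate 1, 6 without knockout replicate 1 and 5 without knockout replicate 2. They were 5 when limma was fitted to every probe set. MHC class II genes, measured for 11 of 12 listed, were 6 higher and 5 lower, and 0 had such a p in limma. That count was 2 without knockout replicate 1, 1 without any of the other arrays but knockout replicate 3, and 1 with array weights or without the intensity trend. Their median of 0.06 was -0.14 when wild-type replicate 1 was left out and 0.24 when replicate 2 of that group was. Leaving out knockout replicates 1, 2 and 3 in turn gave 0.02, 0.15 and -0.01.

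**Figure D5:**
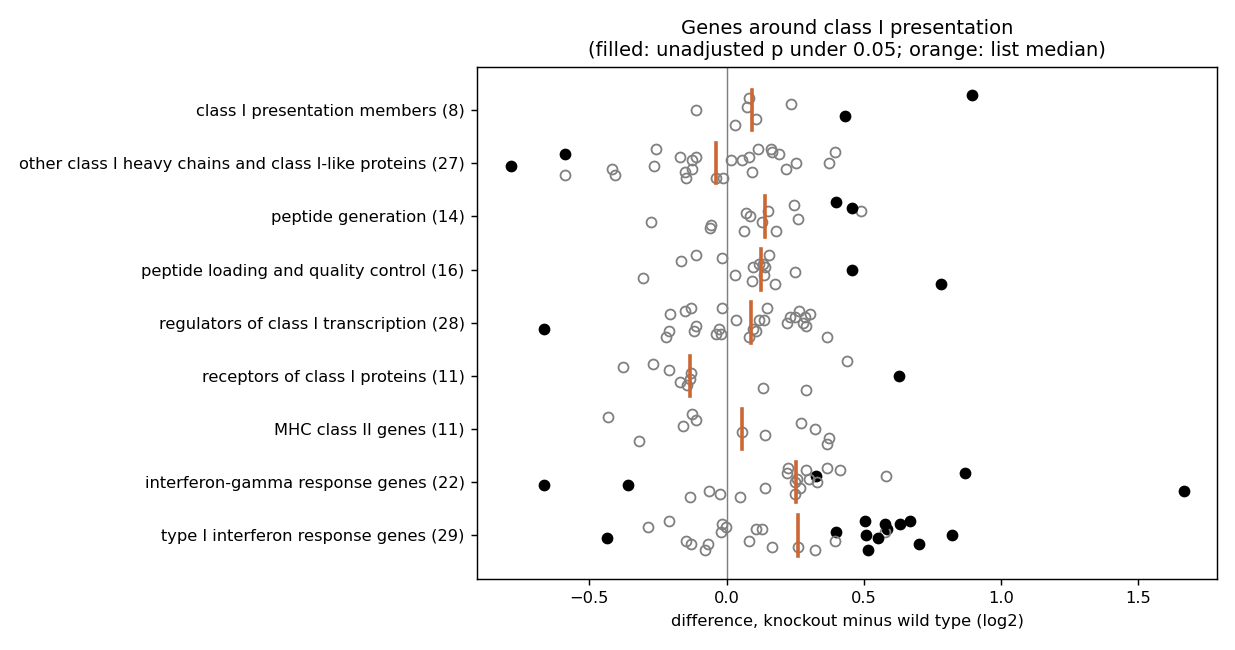
Difference of each measured gene (x axis, knockout minus wild type, log2) in the 8 class I presentation genes and in each list of genes around them (y axis, with the number of measured genes), with filled points for an unadjusted p under 0.05 in limma and an orange bar for the list median. The medians run from -0.13 for receptors of class I proteins to 0.26 for type I interferon response genes.

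In bulk RNA, fewer cells of a type and less RNA per cell cannot be told apart, and this holds for marker genes as well. Marker levels are given as a description of the sorts and do not measure their cell makeup. Among markers of LSK cells, Kit lay between 9.41 and 9.69 and Cd34 between 10.32 and 10.66. Of 15 measured LSK markers, 10 were higher and 5 lower in the knockout mean, and 7 to 9 were higher with 1 array left out. With an unadjusted p under 0.05 in limma, 1 was higher and 1 lower. Their summed level was 12.33 to 12.42 in the wild-type arrays and 12.39 to 12.51 in the knockout arrays. Of 10 markers of mast cells, basophils and eosinophils, 9 were lower in the knockout mean, 4 with an unadjusted p under 0.05 (Prg2, Epx, Ccr3 and Ms4a2). The 4 lower genes became 1 without replicate 3 of either group and 2 without replicate 1 of either group. Their summed level was 9.76 to 10.35 in the wild-type arrays and 8.86 to 10.33 in the knockout arrays. Of 12 mature neutrophil markers 9 were lower, 2 with an unadjusted p under 0.05, and the lowest difference was -1.33. That count was 2 with each array left out. Summed levels were 12.59 to 12.81 in the wild-type and 12.55 to 12.84 in the knockout arrays. Of 11 B and plasma cell markers 6 were higher and 5 lower, 0 with such a p. Without wild-type replicate 3, 3 were higher and 1 lower with such a p. Their summed level was 9.35 to 10.95 in the wild-type and 10.28 to 10.53 in the knockout arrays. Of 9 erythroid and megakaryocyte markers 4 were higher and 5 lower, 1 of the latter with such a p. Of 14 macrophage and dendritic cell markers 9 were higher and 5 lower, 1 and 2 of them with an unadjusted p under 0.05, and the split was 7 and 7 without replicate 1 of either group or wild-type replicate 2. They had summed levels of 9.34 to 9.61 and 9.45 to 9.77. The part of these cells in the values of H2-T24, H2-T23 and the interferon lists was not tested.

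To list genes with a similar profile, each of the 8 genes was centred on its own mean. The average profile over the 6 arrays was compared with 9797 other genes above the median signal, leaving out predicted, small RNA, receptor segment and sex-chromosome genes. The nearest profile was that of Psma7, a proteasome core subunit, with a root mean square distance of 0.0383. It was followed by Stip1, Cnp, S100a10, Acbd3, Pigt, Atad1, Ramp1, Alg3 and Sp110, the last at 0.0489. All 8 genes themselves were farther from their own average, from 0.0948 for Tap1 to 0.356 for H2-T24. Because the nearest genes were picked from 9797 candidates, nothing is read from this order. For B2m alone, the nearest of the same candidates were P4hb (0.0163), Serinc3, Rpl4, Capns1 and Slamf1 (0.0209). B2m varied little, with an SD of 0.0503, and these genes also differed little between the groups, by between 0.006 and 0.049. The likeness rests on 6 arrays and is a description only.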

How the data were processed

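RNA of 6 LSK samples, 3 per genotype and 1 mouse each per the labels, was hybridised to Affymetrix MoGene 2.0 ST arrays. The authors deposited 1 table of log2 values for 41345 probe sets, made with Affymetrix Expression Console per the submitters' processing notes. For background correction, summary method, normalization and version, the sources used here give nothing. Array medians lay between 4.05 and 4.10, and no further normalization was applied. Scaling of whole arrays would hide a shift in the RNA content of a cell, and the number of arrays limits the precision.

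The platform annotation gave 1 symbol to 23521 probe sets and several to 1814, which were left out, and 16010 were not listed. Where a gene had more than 1 probe set (1082 genes), that of highest mean signal was kept, which left 22180 genes. The RefSeq table of GRCm38.p6, used for coordinates, matched 21994 of them. Groups were compared with limma 3.58.1 in R 4.3.3 (lmFit, eBayes with trend, genotype as the only term, two-sided, Benjamini-Hochberg over all genes, threshold 0.05), after the procedure was tested on simulated data. Medians and counts describe the lists, and no list was tested.

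Promoter windows of 300 bases (250 before the gene start and 50 after) came from RefSeq for 5 of the 8 genes. Motif letters were searched on both strands. The text names the 8 genes, Tifab, the genes of each list with the lowest p (at most 6 per list) or a role in the pathway, and the 10 genes nearest to the mean profile (5 for B2m). The 8 genes, the lists and the marker genes were chosen with earlier results of these data known. The labels do not say whether replicate numbers pair the samples, and the main fit did not pair them. Deviations of same-numbered arrays from their group means correlated at 0.020, -0.031 and -0.088. Those of arrays with different numbers correlated at between -0.074 and 0.107. These correlations cannot exclude a shared litter, batch or day. Alternatives were other moderation of the spread, array weights, quantile normalization, median centring, cyclic loess, a filter on dim genes (below the 40th percentile), averaging the probe sets of a gene, every probe set, a replicate block and each array left out in turn.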

Additional observations from a re-analysis of the deposited data

How the results depend on the processing

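H2-T24, H2-T23, H2-M3 and Tap1 were higher in the knockout mean under the main setting, the 10 other processing settings and each of the 6 left-out arrays. The range with 1 array left out was 0.73 to 0.99 for H2-T24, 0.34 to 0.54 for H2-T23, 0.10 to 0.47 for H2-M3 and 0.03 to 0.18 for Tap1. B2m turned to -0.024 under quantile normalization and -0.092 under cyclic loess, Tap2 ran from -0.056 to 0.18, Tapbp from -0.26 to 0.051 and Nlrc5 from -0.022 to 0.16 with 1 array left out, and the cause was not tested. H2-T24 had an adjusted p of 0.195 to 0.645 in limma over these fits. With the replicate number as a block, H2-T24 had an adjusted p of 0.387 in limma, 2119 genes had an unadjusted p under 0.05 beside 2274 without the block, and the same number of the 8 genes, 2, had such a p. Such genes numbered 3 beside 2 among other heavy chains, 4 beside 5 among interferon-gamma and 10 beside 12 among type I interferon response genes.

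The number of the 8 genes lower was 2 under quantile normalization and cyclic loess and 0 to 2 with 1 array left out, and the number lower without overlap was 1 for averaged probe sets and 0 to 1 with 1 array left out. Genes past an adjusted p of 0.05 numbered 0 to 1 with 1 array left out (1 without wild-type replicate 3, 1 without knockout replicate 2). Genes with an unadjusted p under 0.05 numbered 1218 with dim genes left out, where fewer genes were tested, and 4203 over every probe set, where more were. The median of other heavy chains was -0.011 under quantile normalization, -0.070 without dim genes, -0.11 for averaged probe sets and -0.14 to 0.011 with 1 array left out. The median of peptide loading genes was 0.065 under quantile normalization and 0.063 under cyclic loess. With 1 array left out, medians ran from -0.0091 to 0.10 for regulators, -0.16 to 0.095 for receptors, -0.14 to 0.24 for MHC class II genes and 0.11 to 0.28 for interferon-gamma response genes. The 95% intervals bound what 3 arrays per group can show, from -0.10 to 0.16 for B2m to -0.27 to 0.74 for H2-M3.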
